A study of Mus musculus with 6 samples.

Results

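The 9 transcription factor genes described here are Sox17, Sox18, Sox7, Erg, Foxq1, Foxf2, Nr2f2, Meox1 and Tbx1, which were taken by symbol from the 32286 features of a single-cell RNA-seq study of mouse brain microvessels. They were chosen by name as endothelial identity and barrier factors, with measured values of these libraries in view, of which only the genotype difference of Meox1 is on record. Meox1 was known to differ between the genotypes across all endothelial cells, so its genotype values are given as a description without a test. Differences between vessel zones are likewise descriptions, because levels by zone may have entered the choice.

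The study deleted Cldn5, which encodes the tight junction protein claudin-5, in a mosaic of endothelial cells. The 3 control libraries came from C57Bl6 mice that were Cldn5 fl/fl and R26 YFP/YFP. The 3 libraries of the inducible endothelial knockout (Cldn5 iECKO) carried these alleles and Cdh5-creERT2+, a tamoxifen-inducible recombinase driven by the promoter of the endothelial cadherin gene. Mice of both groups, controls included, received tamoxifen by gavage (100 µl at 20 mg/ml) on 3 consecutive days at an age of around 3 months. Microvessel fragments were captured with PECAM1 antibody beads, dissociated and sequenced with 10x Genomics v3.1 chemistry. The labels do not say that a library is 1 animal, so the spread between libraries may be partly technical. P-values of the count fits use a spread partly pooled over genes, not only that of 1 gene between libraries.

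Each control library had between 4049 and 6684 barcodes and each iECKO library between 2714 and 7420. Depth ran from 29721428 to 31638780 unique molecular identifiers (UMIs, counted transcripts) in controls and from 15727366 to 49350802 in iECKO. Any 2 libraries shared at most 12 barcodes. After filtering, 1888 to 4813 endothelial cells per library remained, and all 10 endothelial markers were detected in them. Cldn5 stood at 4774, 4286 and 4845 CPM (UMIs of a gene scaled to a common library total) in endothelial cells of control replicates 1, 2 and 3, and at 2856, 2284 and 2819 CPM in iECKO replicates 1, 2 and 3. No library had a UMI of the YFP reporter. Endothelial cells were sorted into arterial, capillary, venous and fenestrated-type classes by clustering without Cldn5 or the 9 factors. Replicate 2 of each group stood apart by an unnamed subcluster led by Tsix that held 479 control and 132 iECKO cells. This subcluster entered none of these classes. Its cells, 9.95% of control and 6.99% of iECKO replicate 2 endothelial cells, did enter the values given across all endothelial cells. So did 39 cells of another unnamed subcluster, led by the microglial gene C1qb, 20 of them in iECKO replicate 1 (0.426% of its endothelial cells).

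The factors belong to families that set up and keep endothelial identity. SOX17, SOX18 and SOX7 form the SoxF group and act in arterial differentiation and vessel growth. ERG is an ETS factor that keeps junction and homeostasis genes active in endothelium. FOXQ1 and FOXF2 are forkhead factors enriched in brain endothelium, and FOXF2 also acts in brain pericytes. NR2F2 (COUP-TFII) is a nuclear receptor that specifies venous identity and opposes Notch signalling. MEOX1 is a homeobox factor, and TBX1 is a T-box factor with a role in brain and pharyngeal vessel development. Fenestrated-type endothelium, marked by Plvap, lines leaky vessels such as those of the choroid plexus and circumventricular organs.

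On GRCm38, Tbx1 lies on chromosome 16 (18580979 to 18590671, minus strand), 186.175 kb from Cldn5 (18776847 to 18778262, plus strand). Erg lies on the same chromosome, from 95359169 to 95586593 on the minus strand. Foxq1 (31556134 to 31560976) and Foxf2 (31625816 to 31631403) are neighbours on the plus strand of chromosome 13. Nr2f2 lies on chromosome 7 (70351944 to 70366735, minus strand). The others are Sox17 on chromosome 1 (4490931 to 4497354, minus), Sox18 on chromosome 2 (181669836 to 181671640, minus), Sox7 on chromosome 14 (63943673 to 63950732, plus) and Meox1 on chromosome 11 (101877510 to 101894374, minus).

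Promoter windows of 250 bases before an annotated start were found for 4 of the 9 genes in RefSeq (GRCm38.p6). Those of Tbx1 and Nr2f2 are shown because these 2 factors differed between cells with and without detected Cldn5 transcripts. The Tbx1 windows lie at chr16:18588900-18589149 and chr16:18590672-18590921, and the Nr2f2 window at chr7:70366747-70366996, all written along the minus strand. Window 1 of Tbx1 lies within the gene, ahead of an inner start, and no annotated exon overlaps either Tbx1 window, whereas the Nr2f2 window lies in an exon of the antisense gene B130024G19Rik.
Tbx1 window 1: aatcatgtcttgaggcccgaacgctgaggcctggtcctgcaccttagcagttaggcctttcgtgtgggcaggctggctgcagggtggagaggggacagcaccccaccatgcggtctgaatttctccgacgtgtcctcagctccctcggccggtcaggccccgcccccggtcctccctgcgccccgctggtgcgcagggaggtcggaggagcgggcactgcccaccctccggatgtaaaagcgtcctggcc
Tbx1 window 2: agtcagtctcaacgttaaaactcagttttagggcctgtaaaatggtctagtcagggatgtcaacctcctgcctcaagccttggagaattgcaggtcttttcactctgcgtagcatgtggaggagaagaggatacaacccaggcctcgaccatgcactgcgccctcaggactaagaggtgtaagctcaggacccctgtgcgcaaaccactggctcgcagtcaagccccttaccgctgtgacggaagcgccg
Nr2f2 window: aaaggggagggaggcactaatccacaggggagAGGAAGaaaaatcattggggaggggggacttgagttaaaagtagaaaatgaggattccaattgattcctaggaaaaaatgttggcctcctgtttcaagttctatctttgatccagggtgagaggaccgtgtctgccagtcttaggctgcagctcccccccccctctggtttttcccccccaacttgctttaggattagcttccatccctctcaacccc

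Capitals mark a match to a searched motif on either strand. The motifs were the ETS cores CCGGAA and AGGAAG, the SOX cores ACAAT and ACAAAG, the forkhead core TGTTTAC, the nuclear receptor element AGGTCA and the T-box element GGTGTGA. The Nr2f2 window held 1 match, to AGGAAG, which 29.48% of 32851 RefSeq windows of this length hold. Neither Tbx1 window held a match to any of the 7, which occur in 3.166% (TGTTTAC) to 29.48% of all windows. A match describes the letters only and shows no binding.

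Among the SoxF genes of control vessels, Sox17 was lowest in fenestrated-type cells, and Sox18 was higher there than in the other classes of the same library. Sox17 stood at 630, 394 and 384 CPM in arterial cells of control replicates 1, 2 and 3, and at 404, 240 and 267 CPM in capillary cells. Fenestrated-type cells held Sox17 at 39.5, 43.8 and 40.4 CPM, 7.37-fold below the capillary mean (log2 difference -2.83 ± 0.21 SE). When classes were drawn cell by cell with a gate on zone markers in place of clusters, this difference was -0.68. Every control library had more Sox17 in arterial than in venous cells (log2 difference 0.79 ± 0.15), although the class ranges overlapped as replicate 1 was high in its arterial, capillary and venous cells alike.

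Sox18 was detected in every endothelial class, at 540 to 796 CPM in fenestrated-type cells of the control libraries and 205 to 436 CPM in capillary cells. Its log2 difference between these classes was 1.23 ± 0.16, with all 3 control libraries in this direction and no overlap. Arterial cells held more Sox18 than venous cells in 3 of 3 control libraries (0.55 ± 0.15), again with overlapping ranges. Sox7 had a flatter distribution, at 48.5 to 60.6 CPM in arterial, 56.7 to 60.04 in capillary, 77.5 to 84.3 in venous and 42.7 to 57.0 in fenestrated-type cells. Venous Sox7 was above capillary Sox7 in 3 of 3 control libraries (0.49 ± 0.09) but in 1 of 3 iECKO libraries, and over all 6 libraries the difference was -0.04.

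Erg, the ETS factor, was present in all 4 endothelial classes at levels within 112 to 209 CPM. Erg stood at 162, 209 and 184 CPM in arterial cells of control replicates 1, 2 and 3, at 137, 204 and 176 CPM in capillary cells, and at 112, 173 and 159 CPM in venous cells. Fenestrated-type Erg was 115, 147 and 130 CPM, a log2 difference of -0.33 ± 0.09 from capillary cells with overlapping ranges. Control pericytes, smooth muscle cells and microglia had at most 11.1 CPM of Erg.

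Both forkhead genes were lower in fenestrated-type than in arterial, capillary and venous cells (together called barrier-forming here) of every control library. Foxq1 stood at 466, 465 and 645 CPM in control capillary cells and at 11.4, 21.9 and 8.08 CPM in fenestrated-type cells, 38.1-fold lower (log2 difference -5.13 ± 0.18, and -1.42 with the marker gate). It was also lower in venous than in capillary cells in each control library (290, 316 and 396 CPM, -0.61 ± 0.10), although the marker gate gave -0.25, which was not called. Foxf2 stood at 157, 120 and 166 CPM in capillary, 93.6, 90.8 and 106 in venous and 46.5, 73.0 and 76.1 in fenestrated-type cells. Its log2 differences from capillary cells were -0.56 ± 0.10 and -1.13 ± 0.13, without overlap. Control pericytes also held Foxf2, at 53.0, 73.8 and 102 CPM. After thinning to 2000 UMIs per cell, 9.09% to 18.4% of control pericytes had a Foxf2 UMI, against 0% to 1.41% of control microglia, with median depths before thinning of 2614 to 3074 UMIs in pericytes and 3631 to 5097 UMIs in microglia. Only 22, 44 and 38 control pericytes entered these shares.

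Nr2f2 was highest in venous cells among the endothelial classes and was also present in mural cells. Control venous cells held 297, 334 and 379 CPM, capillary cells 71.4, 87.0 and 100, and arterial cells 7.38, 8.14 and 11.1. The venous mean was 38.0-fold above the arterial mean (log2 difference of arterial against venous -5.25 ± 0.10, and -6.05 at another clustering resolution), and the 3 classes did not overlap. Within the capillary class Nr2f2 was graded, with 140 to 173 CPM in the F5-led subcluster, 49.4 to 65.0 in the Cdkn2b-led one and 29.3 to 36.8 in the Gm26917-led one. Control pericytes held 265 to 418 CPM and smooth muscle cells 361 to 444 CPM, while fenestrated-type cells held 10.96 to 13.8 CPM. The fenestrated-type against capillary difference was -2.77 ± 0.15, and -0.70 with the marker gate.

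Among endothelial classes Meox1 was highest in fenestrated-type cells. Meox1 stood at 285, 271 and 330 CPM in fenestrated-type cells of control replicates 1, 2 and 3, at 19.3, 19.6 and 19.5 CPM in capillary cells, and at 1.79, 0.757 and 0.252 CPM in venous cells. The fenestrated-type mean was 15.2-fold above the capillary mean (log2 difference 3.97 ± 0.12, and 2.86 with the marker gate). The arterial against venous difference was 3.43 ± 0.44 with these classes but 0.11 with the marker gate and 0.064 at another resolution, so no order of the 2 is given. A second site of Meox1 was the Apln-led capillary subcluster, whose other leading genes include Adm, Angpt2 and Kit. The 2 control libraries with at least 20 such cells held 153 and 123.4 CPM there.

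Tbx1 was present in all 3 barrier-forming classes and nearly absent from fenestrated-type cells. Tbx1 stood at 93.3, 86.2 and 99.1 CPM in control capillary cells, and at 0, 4.56 and 1.15 CPM in fenestrated-type cells, where microglia of the same libraries had 1.55 to 2.77 CPM. The log2 difference was -5.51 ± 0.31, and -1.68 with the marker gate. Arterial cells held 72.3 to 76.2 CPM, but the Fbln5-led arterial subcluster held 128, 118 and 122 CPM. The small arterial against capillary difference (-0.31 ± 0.09) took the other sign, 0.017 and 0.29, when classes were drawn by a marker gate or at another clustering resolution, so no order among these zones is given.

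**Figure D1:**
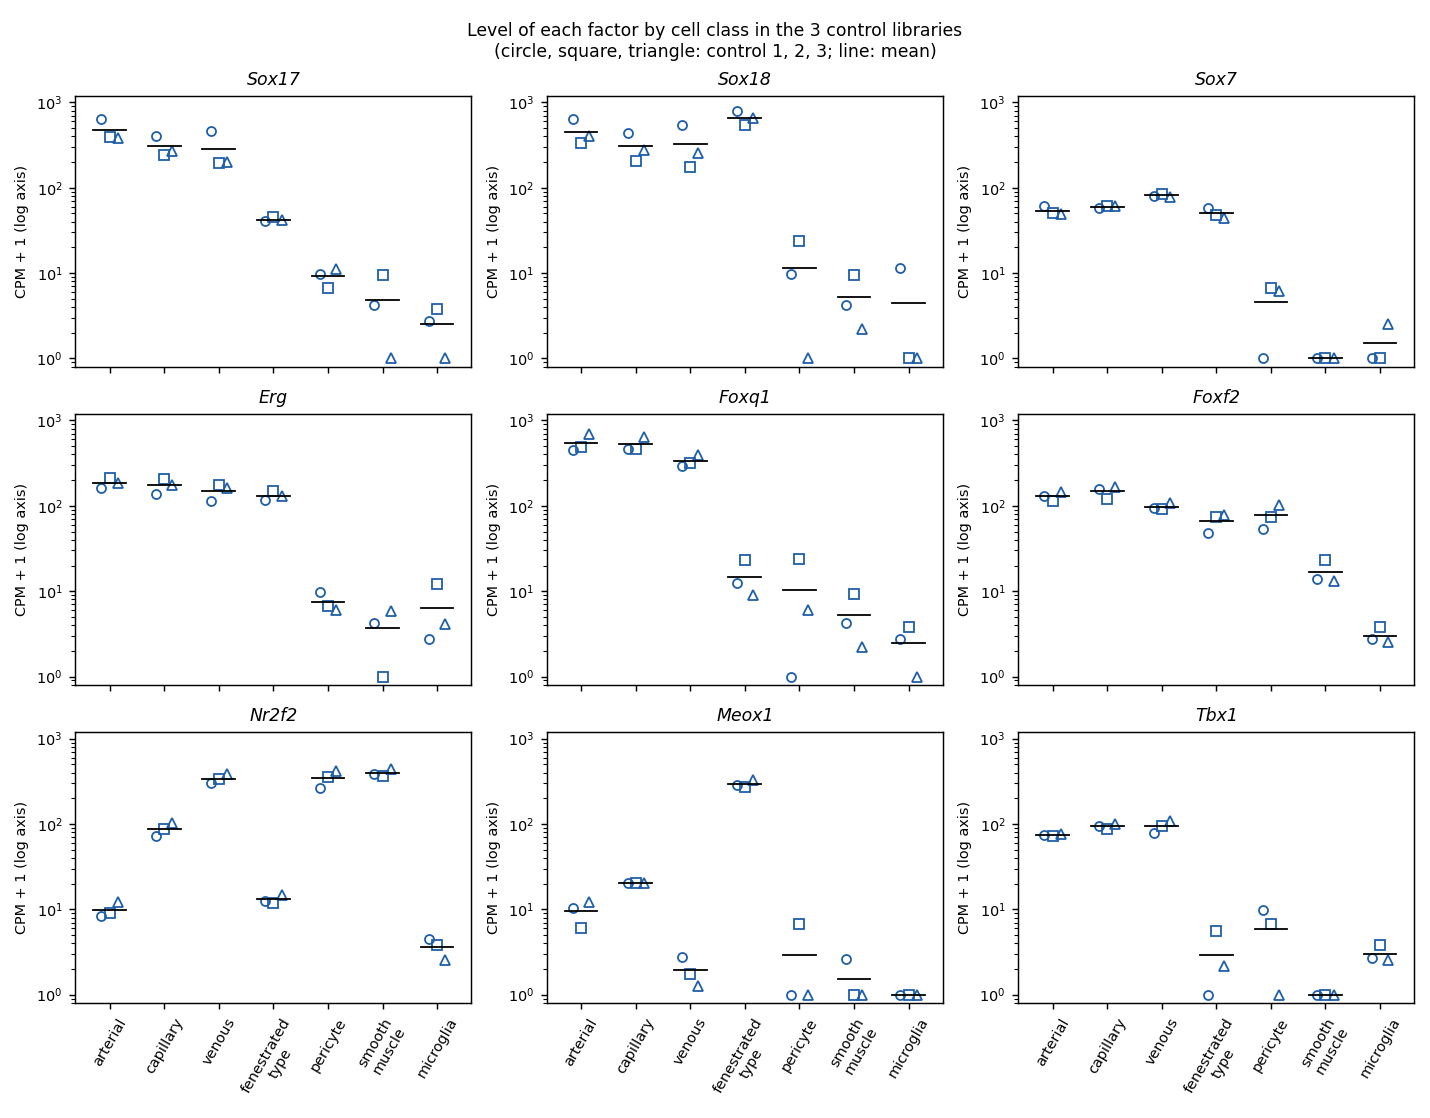
Level of each of the 9 factors (CPM + 1, log axis) in 4 endothelial classes, pericytes, smooth muscle cells and microglia. Points are the 3 control libraries and lines their means. Nr2f2 peaks in venous and mural cells, Meox1 in fenestrated-type cells, and Tbx1 and Foxq1 drop there.

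Of the 9 factors, 6 were called higher and 3 lower in arterial than in venous cells, where 34% of all 11668 tested genes were called in either direction. For fenestrated-type against capillary cells, 2 were called higher and 6 lower, where 42.1% of tested genes were called. Arterial against capillary gave 2 higher and 3 lower (27.6% of tested genes called), and venous against capillary 2 higher and 3 lower (37%). Fenestrated-type cells gave 2 higher and 5 lower against arterial (35.9%) and 2 higher and 6 lower against venous cells (38.8%). Nothing is read from these counts, since the factors may have been picked for such patterns.

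**Figure D2:**
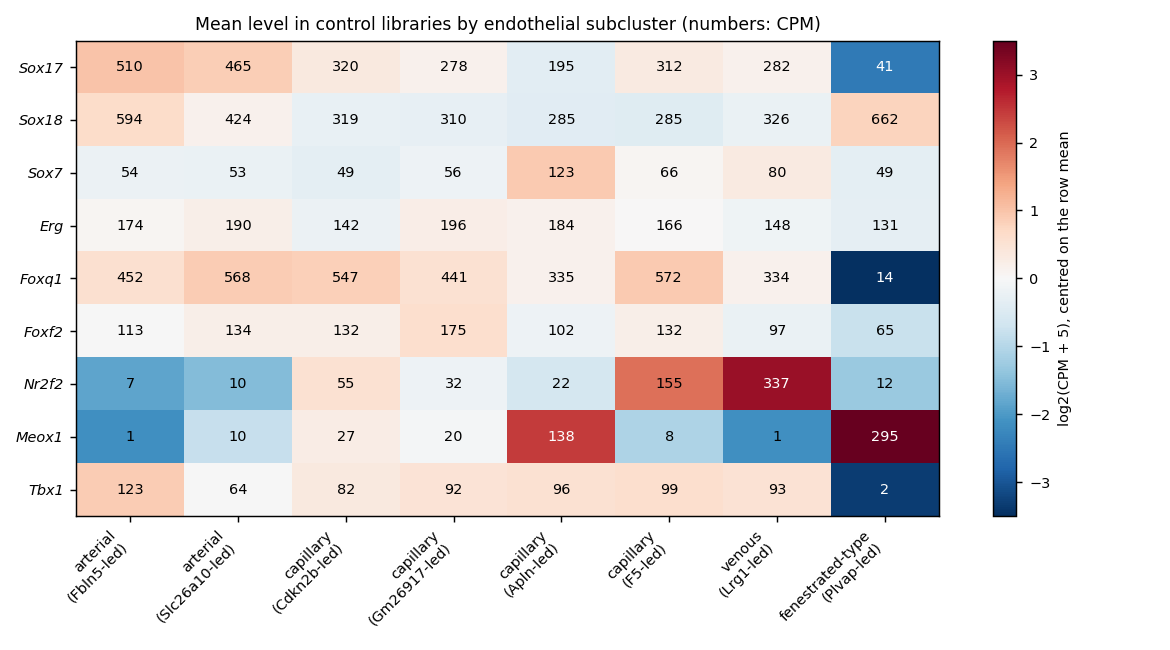
Mean CPM of each factor (numbers) over the control libraries in 8 endothelial subclusters, coloured by log2(CPM + 5) centred on the row mean. The Apln-led and Plvap-led columns carry the high Meox1 values, and the F5-led and venous columns the high Nr2f2 values.

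Other endothelial factors gave context for these zones. Of a list of 40, which was drawn up with earlier results of these data known, 33 were tested in the control zones. In fenestrated-type against capillary cells 11 were higher and 13 lower, where 22.7% of all genes were higher and 19.4% lower. The list median was -0.11 against -0.00 for all genes. The Wnt effector genes Lef1 (-6.07) and Tcf7 (-5.21), with Lyl1 (-4.18), were lower in fenestrated-type cells on the log2 scale, and Hlx (3.52), Hey2 (3.45), Mef2c (2.28) and Tcf7l1 (2.27) were higher. In arterial against venous cells 10 were higher and 12 lower, where 16.5% of all genes were higher and 17.5% lower. The largest on the arterial side were the Notch targets Hey1 (5.06) and Hey2 (3.82), Hlx (1.71) and Ets1 (1.38). Those on the venous side were Foxf1 (-2.11), Tcf7l1 (-1.45), Lyl1 (-1.17) and Foxo1 (-0.99). The 16 genes listed as known targets of ERG or SoxF factors gave 7 higher and 5 lower there, with the Notch ligand gene Dll4 (2.82) and the ephrin gene Efnb2 (2.60) arterial, and Aplnr (-5.04) and Vwf (-3.29) venous. In fenestrated-type against capillary cells 12 of these 16 were higher and 3 lower, with a list median of 0.84 against -0.003 for all genes. The largest changes were those of Efnb2 (2.78), Kdr (2.33) and Eng (1.32), and of Vwf (-4.58), Nos3 (-1.06) and Tek (-0.29).

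Level profiles of 7484 genes were compared over 9 endothelial subclusters, among them the unnamed Tsix-led one with its median of 1539 UMIs. Those most like each factor, by Pearson r of log2(CPM + 5), are a description only, since the subclusters share libraries. For Tbx1 they were Lsr (0.989), which encodes a tricellular junction receptor, Mal (0.982) and the glucose transporter gene Slc2a1 (0.975). For Foxq1 they were Tpd52 (0.995), Cd59a (0.984) and Lsr (0.975). Meox1 was closest to Prdm1 (0.969), Nid1 (0.965) and Tnfaip1 (0.938), and Nr2f2 to Rnase4 (0.957), Pak1 (0.953) and Sox12 (0.947). Sox7 was closest to Ptpn12 (0.977), Nfkb2 (0.976) and Gnai3 (0.972). The top gene was Hsd17b4 (0.956) for Sox17, Mapk3 (0.961) for Sox18, Smg6 (0.969) for Erg and Znrf1 (0.960) for Foxf2.

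Between genotypes, Tbx1 was higher in every barrier-forming class of the iECKO libraries. Across all endothelial cells Tbx1 stood at 81.4, 78.8 and 89.2 CPM in control replicates 1, 2 and 3, and at 139, 161 and 177 CPM in iECKO replicates 1, 2 and 3. The means were 83.1 ± 5.44 and 159 ± 19.4 CPM (SD, n = 3 libraries each), a 1.91-fold difference. The groups did not overlap, all 3 same-numbered iECKO libraries were above their controls, and the fitted log2 difference was 0.94 ± 0.14 (SE). The edgeR adjusted p over all genes was 0.0789 without the replicate block and 0.00391 with it, and over all alternatives run the adjusted p went from 2.96e-06 (DESeq2) to 0.383. The value with the replicate block is given where it changes a call, because same-numbered libraries of the 2 groups deviated together.

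The same direction was measured in each barrier-forming class. Arterial Tbx1 went from 73.1, 72.3 and 76.2 CPM to 145, 161 and 180 CPM (log2 difference 1.13 ± 0.15, edgeR adjusted p = 0.079, with the replicate block 0.000432). Capillary Tbx1 went from 93.3, 86.2 and 99.1 CPM to 147, 169 and 187 CPM (0.86 ± 0.15, edgeR adjusted p = 0.0601, with the block 0.00473), and was called without iECKO replicate 1 (0.94, edgeR adjusted p = 0.0476) or 3 (0.77, 0.0383). Venous Tbx1 went from 77.5, 94.4 and 106 CPM to 128, 174 and 169 CPM (0.76 ± 0.18, edgeR adjusted p = 0.495, with the block 0.00467). None of these groups overlapped, which held for 4.44% (arterial), 8.68% (capillary) and 5.28% (venous) of tested genes in this direction. The arterial difference minus the capillary one was 0.29 ± 0.18 (edgeR adjusted p = 0.722), and the venous minus the capillary one -0.10 ± 0.19 (edgeR adjusted p = 0.919), so neither was told apart from it here. In fenestrated-type cells, where Tbx1 was too low to be tested, the iECKO libraries held 19.3, 8.58 and 3.22 CPM. The 8 pericyte markers summed to 32.1 to 61.3 CPM in control and 58.7 to 93.5 CPM in iECKO endothelial cells, with none at 0. Pericytes held at most 8.83 CPM of Tbx1 in any library.

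With Meox1 left out of the counts, edgeR without the block called 0 of 8 factors across all endothelial cells (0.0151% of all genes called), and likewise 0 of 8 within the arterial (0%), capillary (0.139%) and venous (0%) classes. With the block 1 of 8, Tbx1, was called in each, where 1.46%, 0.605%, 4.14% and 0.524% of genes were called. The unblocked edgeR fit gave an unadjusted p under 0.05 to 2, 1, 3 and 1 of the 8, in the same order, and to 7.32%, 3.29%, 10.4% and 4.91% of all genes. By DESeq2 the calls were 1, 1, 2 and 0, where 157 of 13250, 23 of 11245, 321 of 12193 and 24 of 10500 genes were called. Its unadjusted p was under 0.05 for 2, 1, 3 and 2 of the 8, beside 7.25%, 2.58%, 9.9% and 3.04% of all genes. Tbx1 and Sox7 were the 2 of these 8 that were higher in iECKO without overlap across all endothelial cells, as were 6.79% of tested genes.

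Meox1, described without a test, stood at 28.6, 24.4 and 24.3 CPM in endothelial cells of the controls and at 83.0, 70.1 and 50.1 CPM in those of the iECKO libraries. In capillary cells the iECKO values were 107, 104 and 60.6 CPM, a 4.64-fold higher mean. The Apln-led subcluster made up 36, 26 and 19 control cells but 2623, 382 and 179 iECKO cells. Without it the capillary log2 difference was 0.81 ± 0.29 in place of 2.22 ± 0.22. Meox1 in the Gm26917-led capillary subcluster was 21.6, 20.6 and 17.9 CPM in controls and 22.1, 46.9 and 46.8 CPM in iECKO replicates 1, 2 and 3, so replicate 1, with the most Apln-led cells, stood close to the controls there. In arterial cells it was 9.47, 5.04 and 11.2 CPM in controls and 16.8, 12.01 and 32.4 CPM in iECKO libraries.

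Among capillary cells, Sox7 was highest in the Apln-led subcluster. Capillary Sox7 was 56.7, 60.04 and 59.9 CPM in controls and 185, 112 and 63.2 CPM in iECKO replicates 1, 2 and 3, a log2 difference of 1.04 ± 0.34 that did not pass the test (edgeR adjusted p = 0.31, with the replicate block 0.292). DESeq2 called it (adjusted p = 0.0464), and so did edgeR without iECKO replicate 3 (1.34, adjusted p = 0.0177), while it was 0.56 without iECKO replicate 1. The order of the iECKO libraries was that of their Apln-led cell numbers. Without that subcluster the difference was -0.04 ± 0.12. Within it Sox7 stood at 134 and 112 CPM in control replicates 1 and 2 and at 232, 204 and 133 CPM in the iECKO libraries. In arterial, venous and fenestrated-type cells Sox7 overlapped between the genotypes. For Tbx1 the capillary difference without the subcluster was 0.87 ± 0.16 (edgeR adjusted p = 0.251, with the block 0.000404, where 1.46% of genes were called).

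**Figure D3:**
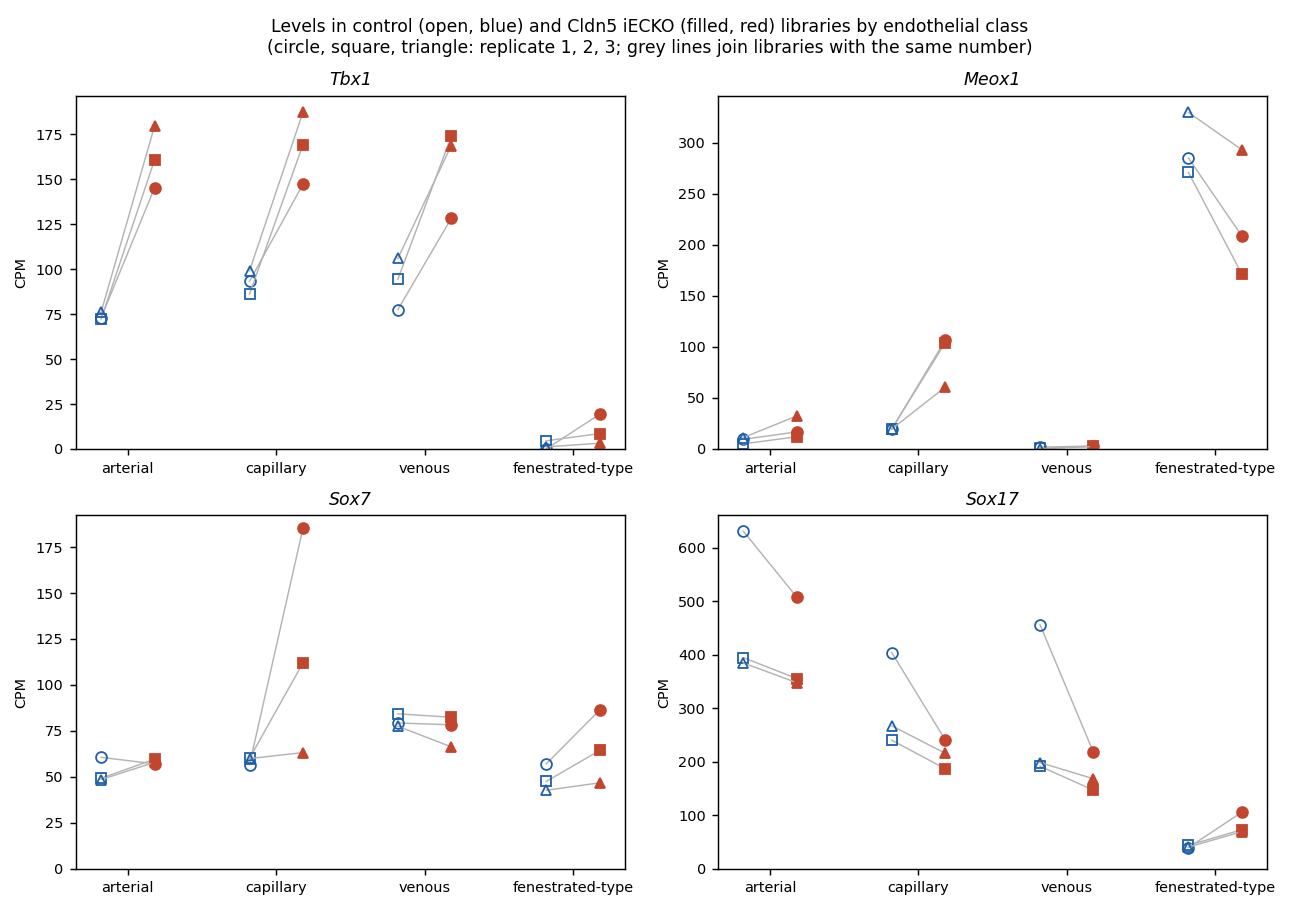
CPM of Tbx1, Meox1, Sox7 and Sox17 in control (open) and iECKO (filled) libraries by endothelial class, with grey lines joining same-numbered libraries. Tbx1 lies higher in all iECKO libraries of the 3 barrier-forming classes, and capillary Sox7 is well above the controls in iECKO replicates 1 and 2 and at 63.2 CPM in replicate 3.

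The remaining factors gave no call between genotypes in arterial, capillary or venous cells. Sox17 was below the same-numbered control in 3 of 3 iECKO libraries of each of these classes, with overlapping groups. In capillary cells it stood at 241, 187 and 216 CPM in iECKO replicates 1, 2 and 3, and with the replicate block the log2 difference was -0.47 ± 0.11 (edgeR adjusted p = 0.0539). Sox18, Erg, Foxq1, Foxf2 and Nr2f2 had overlapping groups across all endothelial cells.

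Fenestrated-type cells differed from capillary cells in their genotype effect for 2 of the 8 factors other than Meox1, Sox17 and Nr2f2, where the interaction was called for 2.26% of all genes. Arterial and venous against capillary cells gave 0 of 8 each in edgeR, with 0.0762% and 0.169% of genes called. At an unadjusted p under 0.05 there were 1 and 2 of the 8, beside 8.62% and 9.77% of all genes. Sox17 stood at 39.5, 43.8 and 40.4 CPM in control and at 106, 72.9 and 69.3 CPM in iECKO fenestrated-type cells, without overlap, as 3.81% of tested genes were higher (log2 difference 1.05 ± 0.24, edgeR adjusted p = 0.534, with the replicate block 0.0228). With the block, Sox17 was the 1 of 7 tested factors other than Meox1 called in this class, where 0.126% of genes were called; without it edgeR called 0 (0.0252%), where 3 of 7 and 2.96% of all genes had an unadjusted p under 0.05, and none was called by DESeq2. Keeping doublets gave 0.60 in place of 1.05. The Foxq1 mean was also higher in iECKO fenestrated-type cells, 27.5 against 13.8 CPM, but the groups overlapped and it was not called between genotypes. The Sox18 mean was lower there, 554 against 662 CPM, also with overlap and no call. The interaction of Sox17 was 1.48 ± 0.26 (edgeR adjusted p = 0.00414), and it was 1.03 (0.0703) without replicate 1 and 1.69 (0.081) without replicate 2. iECKO replicate 1, which had the highest Sox17, also had Cldn5 at 291 CPM in these cells against 24.2 to 119 CPM in the other libraries. Its 8 pericyte markers summed to 181 CPM against 22.6 to 98.6 CPM. Its capillary markers summed to 5735 CPM, below the 6481 CPM of control replicate 1. The part of these values in the result was not tested.

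A mosaic deletion allows cells of 1 library to be compared by whether a Cldn5 transcript was detected. In these fits the edgeR spread is partly pooled over genes, so a very small p-value does not mean close accord of the 3 libraries. Among iECKO cells of at least 2000 UMIs, capillary cells with 0 Cldn5 UMIs numbered 521, 129 and 189 in replicates 1, 2 and 3, and those with at least 2 numbered 2509, 890 and 1448. Cells without detection had fewer UMIs, with library medians of 3363 to 4608 against 4990 to 5914. A cell with 0 UMIs may still carry Cldn5, and 0% to 1.37% of control cells in the Gm26917-led, Cdkn2b-led and F5-led capillary subclusters also had 0 Cldn5 UMIs. In the Apln-led subcluster, which held 400 of the 521 undetected cells of iECKO replicate 1, it was 1 of 26 cells (3.85%) in control replicate 2 and none in the other controls.

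Tbx1 was higher, and Nr2f2 lower, in capillary cells without detected Cldn5. Undetected cells held 168, 249 and 299 CPM of Tbx1 in iECKO replicates 1, 2 and 3, and detected cells of the same libraries held 136, 159 and 174 CPM (log2 difference 0.57 ± 0.08, edgeR adjusted p = 2.58e-11). Detected iECKO cells in turn all stood above detected control cells, at 91.8, 87.5 and 96.6 CPM. With the subcluster added as a block the Tbx1 difference was 0.69 ± 0.09 (edgeR adjusted p = 8.63e-10). That fit left out the F5-led cells and the Apln-led cells of iECKO replicate 3, where undetected cells were too few. In arterial cells Tbx1 was 155, 215 and 257 CPM in undetected and 147, 151 and 167 CPM in detected cells (0.48 ± 0.12, edgeR adjusted p = 0.0105), against 73.0, 74.0 and 75.4 CPM in detected control cells. The arterial call was lost without iECKO replicate 2 (0.45, edgeR adjusted p = 0.0714) or 3 (0.32, 0.838), at 4000 UMIs (0.52, 0.141) and in DESeq2 (0.47, 0.698).

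Nr2f2 stood at 27.5, 26.4 and 31.4 CPM in undetected and at 84.0, 75.0 and 86.1 CPM in detected capillary cells of iECKO replicates 1, 2 and 3 (log2 difference -1.53 ± 0.14, edgeR adjusted p = 4.33e-26). Detected control cells, at 72.7, 89.3 and 100 CPM, overlapped the detected iECKO cells. The F5-led subcluster, which had the highest capillary Nr2f2, had only 2.05% to 3.34% undetected cells in the iECKO libraries, against 15.8% to 20.5% in the Gm26917-led, 10.8% to 12.4% in the Cdkn2b-led and 10.2% to 17.0% in the Apln-led subcluster. A fit with library and subcluster as a block left out the F5-led subcluster, which had 4, 3 and 14 undetected cells. It also left out the Apln-led cells of iECKO replicate 3. In the remaining capillary cells the difference was -1.23 ± 0.17 (edgeR adjusted p = 3.41e-08).

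In all, 3 factors were higher and 2 lower of 9 in undetected capillary cells, where 8.91% of genes were called, and 1 of 9 in arterial cells, where 0.89% were called. On the log2 scale, Sox18 (0.31 ± 0.07, edgeR adjusted p = 0.000171) and Meox1 (0.35 ± 0.10, 0.00715) were higher and Foxq1 (-0.25 ± 0.06, 0.00102) lower in undetected capillary cells. With the subcluster as a block, on the reduced set of capillary cells, these 3 lost their calls (edgeR adjusted p 0.0545, 0.669 and 0.289), and 2.26% of genes were called. Only the Slc26a10-led arterial subcluster had at least 20 cells of each kind, so the arterial fit held that subcluster alone and adjusted for none. Tbx1 was called within it (0.63 ± 0.13, edgeR adjusted p = 0.00563), where 0.308% of genes were called. In capillary cells Meox1 also lost its call without iECKO replicate 1 (0.21, edgeR adjusted p = 0.602) or 3 (0.31, 0.144), and Foxq1 without iECKO replicate 1 (-0.16, 0.362). With no library block Nr2f2 alone of the 5 was still called in edgeR, and Tbx1 (0.62) was not. Erg, Foxf2, Sox17 and Sox7 were not called in either class.

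**Figure D4:**
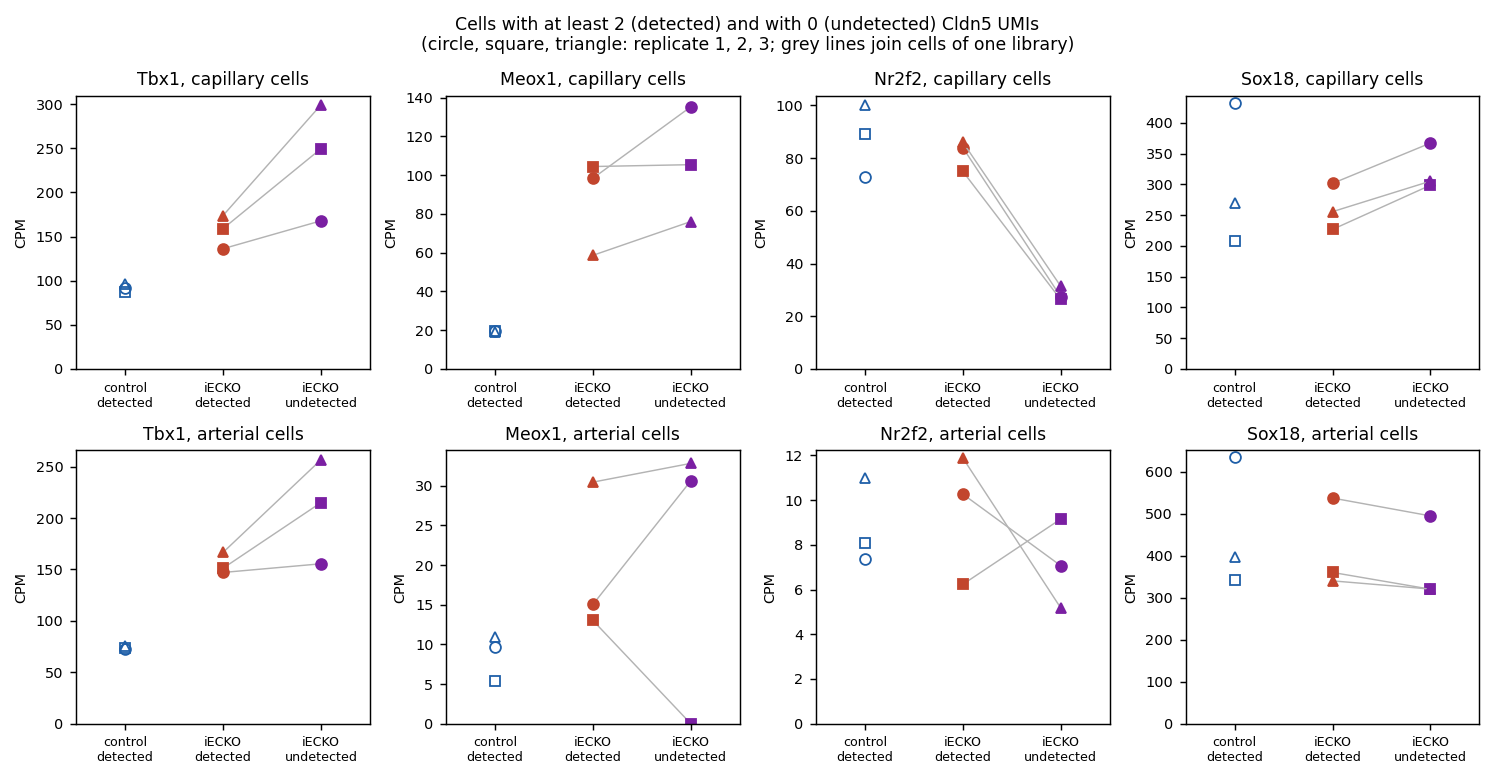
CPM of Tbx1, Meox1, Nr2f2 and Sox18 in capillary (top) and arterial (bottom) cells: detected control cells, detected iECKO cells and undetected iECKO cells, with grey lines joining cells of 1 library. Tbx1 steps up from the first to the third column in every library pair, and capillary Nr2f2 is lowest in the undetected cells of every iECKO library.

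Other factors also differed between undetected and detected capillary cells, 7 higher and 6 lower of 32 tested, where 3.99% of all genes were higher and 4.92% lower, with a list median of 0.02 against 0.01 for all genes. The largest rises were those of the Notch target Hey1 (1.18), Sox4 (0.47), Hlx (0.43) and Ets2 (0.41). The largest drops were those of the flow-responsive Klf4 (-0.46), Hes1 (-0.42), which is also a Notch target, the LIM-domain gene Lmo2 (-0.33) and Foxp1 (-0.29). With the subcluster as a block 1 was higher, Hey1 (0.76), and 2 lower, Lmo2 (-0.36) and Klf4 (-0.31), where 1.17% of all genes were higher and 1.08% lower. Of 16 listed ERG or SoxF targets, 5 were higher and 2 lower, including the arterial genes Efnb2 (1.06) and Dll4 (0.42), and Vwf (-0.84). With the subcluster as a block 1 was higher, Efnb2 (0.72), and 1 lower, Vwf (-0.49), of 15 tested. Between genotypes, edgeR without the replicate block called 0 of 35 other factors and 0 of 16 targets across all endothelial cells. Within the arterial, capillary and venous classes it called none either. Across all endothelial cells the block added the Notch receptor gene Notch4 (0.44 ± 0.08, edgeR adjusted p = 0.0421). In capillary cells it added Mef2c (0.48 ± 0.11, edgeR adjusted p = 0.0458) and Notch4 (0.60 ± 0.09, 0.0134), where 4.14% of genes were called. Venous cells gave Klf2 (-0.59 ± 0.12, edgeR adjusted p = 0.0498), Dll4 (1.41 ± 0.23, 0.0355) and Notch4 (0.65 ± 0.13, 0.0404), where 0.524% were called.

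Because Tbx1 lies near the floxed gene, the genes within 250 kb of Cldn5 were looked at after these values were seen. Besides Tbx1 and Cldn5, 7 of them could be tested across all endothelial cells. With the replicate block their log2 differences between genotypes ran from -0.18 to 1.66, and 2 were called, Sept5 (1.66 ± 0.29, edgeR adjusted p = 0.0369) and Cdc45 (1.37 ± 0.22, 0.0284). Without the block neither was called (edgeR adjusted p 0.242 and 0.225). Neither was called between undetected and detected capillary cells (0.60 ± 0.50 and -0.15 ± 0.48, edgeR adjusted p 0.568 and 0.912). Their errors were wide beside that of Tbx1 (0.57 ± 0.08), so a difference of its size could have gone uncalled. Hira came nearest to a call there (0.48 ± 0.17, edgeR adjusted p = 0.0611).

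Shares of cells with a UMI were compared after each cell was thinned to 2000 UMIs, which left out 130 to 769 shallower endothelial cells per library. Tbx1 was detected in 13.6%, 11.97% and 14.97% of control and 19.6%, 24.2% and 28.6% of iECKO endothelial cells of replicates 1, 2 and 3. The means were 13.5% ± 1.503 and 24.1% ± 4.47 (SD, n = 3 libraries, two-sided exact permutation p = 0.1, the smallest that 3 against 3 allows). The exact Clopper-Pearson 95% intervals of single libraries, which cover counting error only, did not overlap between the groups, the nearest being 13.7% to 16.3% in control replicate 3 and 18.4% to 20.9% in iECKO replicate 1. Microglia, with library medians of 3364 to 5734 UMIs before thinning against 4012 to 5924 in endothelial cells, showed a Tbx1 UMI in 0% to 1.41% of cells. Without thinning the Tbx1 means were 28.9% and 43.6%, and the groups overlapped. Meox1 went from 4.65% ± 0.305 to 11.3% ± 2.64 and Sox7 from 9.81% ± 1.05 to 16.2% ± 5.66, again without overlap, the latter being 22.4%, 14.8% and 11.4% in iECKO replicates 1, 2 and 3. The other 6 factors overlapped between the groups.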

How the data were processed

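The deposited values were, per the file headers, whole UMI counts per gene and cell barcode from 3 control and 3 Cldn5 iECKO libraries, produced by Cell Ranger 6.1.1, as the file headers record for the authors' run; the build mm10 and Seurat are named in the submitters' processing notes. Barcodes with at least 1000 UMIs, 500 genes and at most 15% mitochondrial counts were kept. The highest Scrublet doublet scores were removed (0.8% per 1000 barcodes), because the automatic threshold marked almost none. Cells were clustered with scanpy 1.11.5 (2000 variable genes, 40 components, 20 neighbours, Leiden resolution 1.0, then 0.6 within endothelium) without Cldn5, the 9 factors, mitochondrial genes and Xist. A class was named from at least 3 markers detected in 25% of its cells, so classes are rebuilt and may differ from the study's.

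UMI counts were summed per library and class (at least 20 cells) and tested with edgeR 4.0.16 (R 4.3.3; TMM, low-count filter, quasi-likelihood, two-sided, Benjamini-Hochberg over all tested genes, threshold 0.05). CPM values share 1 TMM scale over all sums. Genotype fits had no block; zone, interaction and detection fits had the library as a block. Replicate numbers come from the sample titles. Same-numbered libraries deviated together (Pearson r across 13250 genes 0.428, 0.521 and 0.496, other pairings -0.389 to -0.0924), so the numbers were taken to pair the libraries. Deviations were taken from the mean of each group, which pushes the other pairings below 0 when same-numbered ones are positive. The negative values are therefore no separate evidence of pairing. DESeq2 1.42.0 was an alternative. Genotype, zone and capillary detection fits were also run on counts simulated without pairing of libraries. That simulation cannot vouch for the fits under the pairing described above. The factors, gene lists and tests were chosen with earlier results of these data known; all 9 factors are named, and of other lists at most 4 genes per direction (3 for targets) with the largest called change, or every factor called between genotypes, and the 3 most alike genes per factor; 1 gene of the factor list is not reported here. Dropping the Apln-led subcluster, the subcluster block and all alternatives for fenestrated-type cells were added after the data were seen. Fits with the subcluster block kept only subclusters with at least 20 undetected and 20 detected cells in a library.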

Additional observations from a re-analysis of the deposited data

Results flagged for a closer look

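The genotype difference was not the same in fenestrated-type as in capillary cells for 2 of the 8 factors other than Meox1, by a test of the difference itself in edgeR with the library as a block. Sox17 had an interaction of 1.48 ± 0.26 (log2, SE; edgeR adjusted p = 0.00414). Its fenestrated-type levels were higher and its capillary levels lower in all 3 iECKO libraries than in the same-numbered controls.

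Nr2f2 had an interaction of 1.40 ± 0.30 (edgeR adjusted p = 0.0129). It stood at 11.4, 10.96 and 13.8 CPM in control and at 37.5, 8.58 and 25.8 CPM in iECKO fenestrated-type cells of replicates 1, 2 and 3, so the groups overlapped and replicate 2 went the other way. Without replicate 1 the interaction was 1.04 (edgeR adjusted p = 0.488), and without replicate 2 it was 1.46 (0.0852).

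For Meox1, given as a description without a test, the fenestrated-type minus the capillary difference was -2.57 ± 0.42. It stood at 285, 271 and 330 CPM in control and at 209, 172 and 293 CPM in iECKO fenestrated-type cells, while its capillary level was higher in every iECKO library. Without replicate 1 the value was -2.27, and without replicate 2 it was -2.42. iECKO fenestrated-type cells numbered 139, 54 and 67. Beside these values, Slco1a4 in fenestrated-type cells of iECKO replicate 1 was 161 CPM against 36.0 to 77.2 CPM in the other libraries. The capillary markers summed to 5735 CPM there, against 6481 CPM in control replicate 1 and 3367 to 3889 CPM in the remaining libraries. The part of either in the results was not tested.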

How the results depend on the processing

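With the replicate block the genes called between genotypes went from 2 to 194 across all endothelial cells, 0 to 68 in arterial, 17 to 505 in capillary, 0 to 55 in venous and 2 to 10 in fenestrated-type cells. In the same order DESeq2 called 157, 23, 321, 24 and 4, and no count filter gave 54, 30, 163, 95 and 22. Keeping doublets gave 1 across all endothelial, 8 in capillary and 1 in fenestrated-type cells, and a stricter cell filter 3 in arterial and 50 in capillary cells. Without the Apln-led subcluster capillary calls were 0, and 175 with the block. Leaving out 1 library gave 0 to 120, 0 to 2, 0 to 360, 0 to 32 and 1 to 4. Besides the Tbx1 and Sox17 calls given in the report, the block changed no genotype call of the 8 factors other than Meox1.

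Calls between undetected and detected cells were 958 in capillary and 82 in arterial cells. They became 330 and 15 with DESeq2, 537 and 19 at 4000 UMIs, 177 and 27 with the subcluster block, and 3 and 1 without a library block, and ran from 384 to 616 and 32 to 86 with 1 library left out. Interaction calls against capillary cells were 9 (arterial), 267 (fenestrated-type) and 20 (venous). They were 0, 30 and 1 with no library block, and 0 to 236, 7 to 440 and 0 to 142 with 1 replicate pair left out. Zone calls without a library block were 982 (arterial against capillary), 2003 (arterial against venous) and 1719 (venous against capillary), against 3224, 3969 and 4319 with it. With 1 control library left out, they were 2135 to 2519, 2858 to 3456 and 3128 to 3617, and those of fenestrated-type cells 3434 to 3476 (against arterial), 3943 to 4105 (capillary) and 3551 to 3957 (venous).

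Values that changed sign were capillary Sox7 without the Apln-led subcluster (-0.037, and -0.043 with the block), Tbx1 arterial against capillary with the marker gate (0.017) and at another resolution (0.29), Tbx1 arterial against venous at that resolution (0.12), and Sox7 venous against capillary over 6 libraries (-0.037). The iECKO minus control share changed sign for Sox18 (1.30 percentage points) and Foxq1 (0.970) without thinning and for Nr2f2 (-1.66) at 4000 UMIs. With 1 library left out it ran from -12.5 to -4.11 (Sox17), -10.2 to 1.14 (Sox18), 3.26 to 8.79 (Sox7), -0.259 to 3.57 (Erg), -8.21 to 2.86 (Foxq1), -2.78 to 2.67 (Foxf2), -0.381 to 1.71 (Nr2f2), 5.28 to 7.90 (Meox1) and 8.38 to 12.9 (Tbx1). The cause of these shifts was not tested. Fenestrated-type sums rest on 54 to 265 cells per library, which limits low genes there.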
